A study of Mus musculus with 8 samples.

Results

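The Hox genes are homeobox transcription factors named by a cluster letter and a paralog number. They were taken as the genes of the deposited expression table whose gene symbol is Hox, a cluster letter from a to d and a number, which gave 30 of the 18770 genes listed. The reference annotation holds 39 such genes, so 9 were not listed. Dermis with hair follicles, freed of interfollicular epidermis, came from the depilated dorsal skin of wildtype C57BL/6 mice (C57BL/6J in the methods) aged 7 to 8 weeks, at D4 after depilation. In the AP group the skin was treated topically with Alpinetin, a plant flavonoid, dissolved in 65% ethanol, and in the vehicle control (VC) group with 65% ethanol alone. RNA was sequenced in 4 AP and 4 VC libraries, named here AP.1 to AP.4 and VC.1 to VC.4. The areas treated lay on the back near the forelimbs, so the skin sampled was of the anterior trunk.

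Hox genes lie in clusters, and their order along each cluster matches the order in which they are expressed from head to tail in the embryo, low paralog numbers anteriorly and high ones posteriorly. Dermal fibroblasts of the adult keep much of this code, so that skin of different body sites carries different Hox profiles. Hoxc13 stands apart, being expressed in the matrix and the forming shaft of hair follicles of the whole body, where it regulates hair keratin genes.

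The reads on genes numbered 6454563 to 7264151 in a VC library and 8507783 to 11190113 in an AP library. Of these, 48.4% ± 5.81 in VC but 8.66% ± 2.63 in AP (SD, n = 4 each) fell on the 13 genes of the mitochondrial genome (exact permutation test, two-sided p = 0.0286, which no split of 4 against 4 libraries can undercut). The values are normalized counts, that is, reads divided by 1 size factor per library. A gene was called detected in a library with more than 3 reads, a floor that stood at 4.10 to 5.63 normalized counts in VC but at 1.49 to 2.18 in AP. Low values were therefore resolved better in the AP group. In these bulk samples, fewer cells of a type and less RNA per cell cannot be told apart. A figure legend of the paper gives 4 mice per group for the RNA-seq, but the labels tie no column of the table to a mouse, so p-values measure the spread between these libraries.

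Of the 39 Hox genes annotated, 19 were detected in all 8 libraries, 11 in some and none of the listed ones in no library. Levels were compared between genes per length, as normalized counts per kb of merged exon. On this scale Hoxc8, a trunk gene of the central class, was highest over all libraries with 107, followed by Hoxd8 with 84.4, Hoxc13 with 77.9 and Hoxb7 with 68.0. Hoxb6 with 58.8, Hoxb8 with 57.3, Hoxa7 with 56.9 and Hoxc6 with 51.6 came next. Of these 8 genes, all but Hoxc13 were thus of paralogs 6 to 8, and every cluster was among them. Most neighbours in this order did not differ beyond their spread. In the VC group Hoxc8 had a per-length level of 149 ± 17.6 and Hoxd8 of 95.3 ± 33.4 (SD, n = 4 each), and the ranges of both genes, 131 to 173 and 64.1 to 141, overlapped. With the length of the longest transcript in place of merged exons, Hoxc8 and Hoxd8 still ranked 1 and 2, while Hoxc13 ranked 6.

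**Figure D1:**
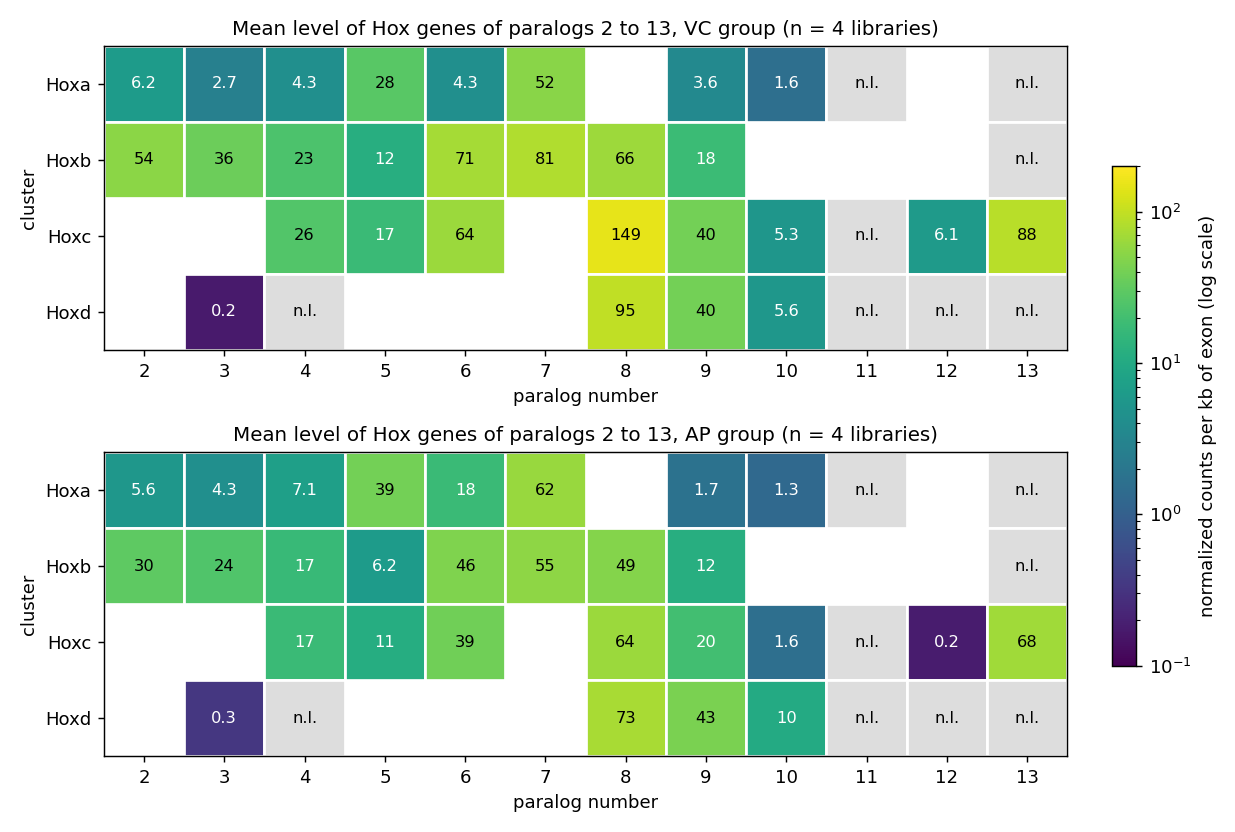
Mean normalized counts per kb of exon of the Hox genes of paralogs 2 to 13 in the VC group (top) and the AP group (bottom, n = 4 libraries each), by cluster (rows) and paralog number (columns), on a logarithmic colour scale. Grey cells marked n.l. are annotated genes not listed in the table and white cells have no gene; levels peak at paralogs 6 to 8, and Hoxc13 stands apart, at 88 in VC and 67.8 in AP.

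Among anterior paralogs (1 to 3), expression came mainly from the Hoxb cluster. Hoxb2 and Hoxb3, which pattern the hindbrain in the embryo, had mean per-length levels of 41.9 and 30.3 over the 8 libraries. Hoxa2 and Hoxa3 had 5.90 and 3.49, Hoxb1 had 2.12 and Hoxd3 had 0.253. Reads could not be assigned to strands, since the setting is not given in the sources used here. Of the exon bases of Hoxb3, 52.9% lie opposite exons of the antisense transcript Hoxb3os, and of those of Hoxb2, 27.3%. Hoxd3 shares 62.3% of its exon bases with Gm28230 and Hoxd4 on the same strand. The levels of these genes are uncertain to that extent.

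In the central class (4 to 8), 12 of 15 genes were detected in all 8 libraries. The exceptions were Hoxa4 and Hoxa6, detected in 6 and 5 libraries, and Hoxd4, which was not listed. Central genes of moderate level were Hoxa5 with 33.6, Hoxc4 with 21.6, Hoxb4 with 20, Hoxc5 with 14.2, Hoxa6 with 10.9, Hoxb5 with 8.96 and Hoxa4 with 5.70 normalized counts per kb. The posterior class (9 to 13) was sparser. Of its 16 genes, 4 were detected in all libraries: Hoxc13, Hoxd9 with a per-length level of 41.4, Hoxc9 with 29.7 and Hoxb9 with 14.7. Paralog 9 was thus expressed from the Hoxb, Hoxc and Hoxd clusters, whereas Hoxa9 had 2.67 and was detected in 6 libraries.

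Except for Hoxc13, the levels dropped beyond paralog 9. Hoxd10 had 7.93 normalized counts per kb and was detected in 7 libraries, Hoxc10 had 3.45 and was detected in 4, and Hoxa10 had 1.44 and was detected in 5. Hoxc12, the neighbour of Hoxc13, had 3.16 and was detected in 2 libraries. The genes not listed were Hoxa11, Hoxa13, Hoxb13, Hoxc11, Hoxd1, Hoxd4, Hoxd11, Hoxd12 and Hoxd13. Of these, 7 are posterior. Every gene of the table had a read in at least 3 libraries, and the levels of genes not listed were not analysed here.

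Hoxc12 and Hoxb1 were too low for the test and were chosen for description after their values were seen. Hoxc12 had 0, 7.39, 12.3 and 5.63 normalized counts over VC.1-VC.4, then 0.725, 0, 0 and 0 over AP.1-AP.4. Hoxb1 had 0, 5.91, 20.5 and 9.38 over VC.1-VC.4, then 1.45, 0, 0 and 2.15 over AP.1-AP.4. In both genes all AP libraries were at or under the floor of 3 reads although they were sequenced more deeply, and VC.1 was at 0. Hoxc10 ranged from 0 to 34.0 normalized counts and Hoxd3 from 0 to 2.70, and neither was tested.

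Other genes of position were read beside the label of the tissue. Tbx15 and En1, which mark dorsal skin in the embryo, were expressed, Tbx15 with a mean of 617 ± 150 normalized counts and En1 with 109 ± 20 in the VC group (SD, n = 4 each). Some limb genes were low: Tbx5 of the forelimb had 6.69 ± 7.19, Tbx4 and Pitx1 of the hindlimb had 7.52 ± 8.67 and 3.32 ± 6.65 in the VC group (SD, n = 4 each). Some mesenchymal homeobox genes of the same list stood above En1 in VC. Prrx1 had 831 ± 243, Alx4 321 ± 103, Prrx2 215 ± 56.4 and Shox2 173 ± 61.8 (SD, n = 4 each). The body site was not tested by these values. Evx1 and Evx2, which lie beside the posterior ends of the Hoxa and Hoxd clusters, were not listed.

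The comparison of AP with VC asks how the code stood in treated skin. Fold changes are AP over VC as log2 of the normalized count plus 1, tested with limma over the 15964 genes that reached 3 normalized counts in 4 or more libraries. Of the 30 listed Hox genes, 26 were tested. At an adjusted p under 0.05, 1 of them was higher in AP (3.85%, where 6.33% of all genes were) and 1, Hoxc8, was lower (3.85%, where 4% of all genes were). The number called higher was 0 by edgeR and by voom. The methods of the paper set a fold change over 1.5 and an unadjusted p under 0.01 on DESeq2 results. With these cutoffs put on the limma fit instead, 3 of 26 were called (11.5%, against 13.6% of all genes), Hoxc8 and Hoxb2 among them. The ranges of the groups did not overlap in 4 of 26 (15.4%, against 19.2% of all genes), Hoxa6, Hoxb2 and Hoxc8 among them. These shares were near or below those of all genes, so as a family the Hox genes were not called more often than others.

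The median log2 fold change of the 26 genes was -0.36, beside 0.06 over all genes tested, and 17 of 26 were below 0 (65.4%, against 46.5% of all genes). The cluster medians differed in sign. The median was 0.66 over 9 Hoxa genes, -0.50 over 8 Hoxb genes, -0.58 over 6 Hoxc genes and 0.11 over 3 Hoxd genes. With 1 library left out these medians moved, Hoxa to 0.40 without VC.4, Hoxc to -0.37 without VC.1, and Hoxd to between -0.10 without AP.2 and 0.35 without VC.4 (it was also just below 0 without VC.1), and that of all 26 genes to -0.23 without VC.2. All 8 Hoxb and all 6 Hoxc genes tested had a log2 fold change below 0, whereas 7 of 9 Hoxa genes were above 0. Scaling by total counts, which moved the median of all genes by 0.84 to 0.90, put all 8 Hoxb and 4 of the 6 Hoxc genes above 0. All 14 were below that median, but this is no separate check. A change of scaling moves all genes of a library together and hardly alters their place relative to the median. Without VC.2 or without VC.4, Hoxb9 was above 0, and without VC.3, Hoxc13 was. By paralog class the median was 0.66 over 5 anterior, -0.48 over 14 central and -0.19 over 7 posterior genes. The anterior median, too, was the value of Hoxa2. The signs of these class medians were not stable. With total counts they were 1.31, 0.38 and 0.59, against 0.90 over all genes. Without VC.4 the anterior median turned to -0.25, and without VC.3 the posterior median turned to 0.07. No test was made of these medians.

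**Figure D2:**
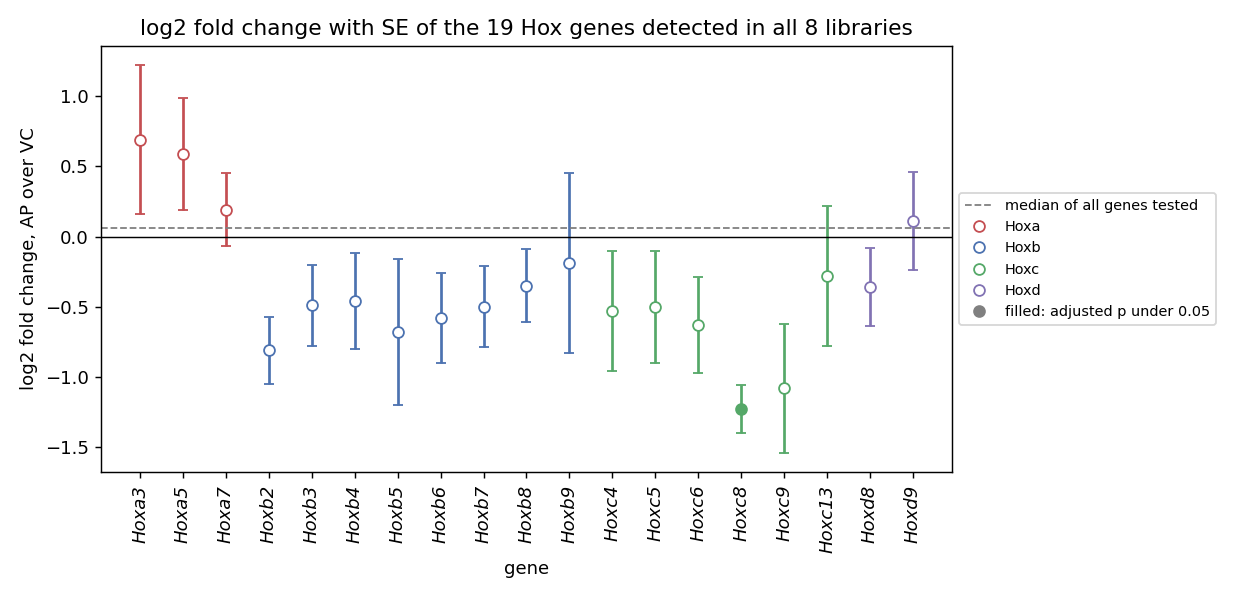
log2 fold change of AP over VC with its SE (limma, 4 libraries per group) for the 19 Hox genes detected in all 8 libraries, ordered by cluster and paralog number; filled points have an adjusted p under 0.05 and the dashed line is the median of all genes tested, 0.06. Hoxb and Hoxc genes lie below 0, which scaling by total counts reverses for all 8 Hoxb and 4 of 6 Hoxc genes, and of the genes shown only Hoxc8 is filled.

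Hoxc8, which in the embryo sets the identity of the thoracic region, fell in AP. The gene (ENSMUSG00000001657) lies on chromosome 15 of mm10 from 102990607 to 102994111, plus strand. It had 489, 371, 406 and 428 normalized counts over VC.1-VC.4, then 220, 164, 178 and 160 over AP.1-AP.4. Every VC library was above every AP library, and the spread within each group was small, with an SD of 11.8% of the mean in VC and 15.1% in AP. The mean went from 423 ± 49.8 to 180 ± 27.3 (SD, n = 4 each), 0.426 times the VC level, a log2 fold change of -1.23 (SE 0.17, limma adjusted p = 0.00486). It was lower in 4 of 4 AP libraries, and its adjusted p stayed between 0.00254 and 0.0247 with any library left out. With a trend on exon length removed from each library, the log2 fold change was -1.15 (limma adjusted p = 0.00674), and with reads outside mitochondrial genes drawn down to equal depth it was -1.27 (0.00631). The call ended with total counts (-0.36, limma adjusted p = 0.133, in a fit where the median of all genes was 0.90), and with values taken relative to the dermal fibroblast list, a scaling chosen after seeing the data (-1.47, adjusted p = 0.0754). Over its 22 alternatives the adjusted p ranged from 8.68e-09 to 0.133. Within the Hox genes Hoxc8 lost its lead: its per-length level was the highest of all in VC.1, VC.2 and VC.4 and second to Hoxc13 in VC.3, while Hoxd8 led in AP.1, Hoxc13 in AP.2 and AP.3 and Hoxa7 in AP.4.

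**Figure D3:**
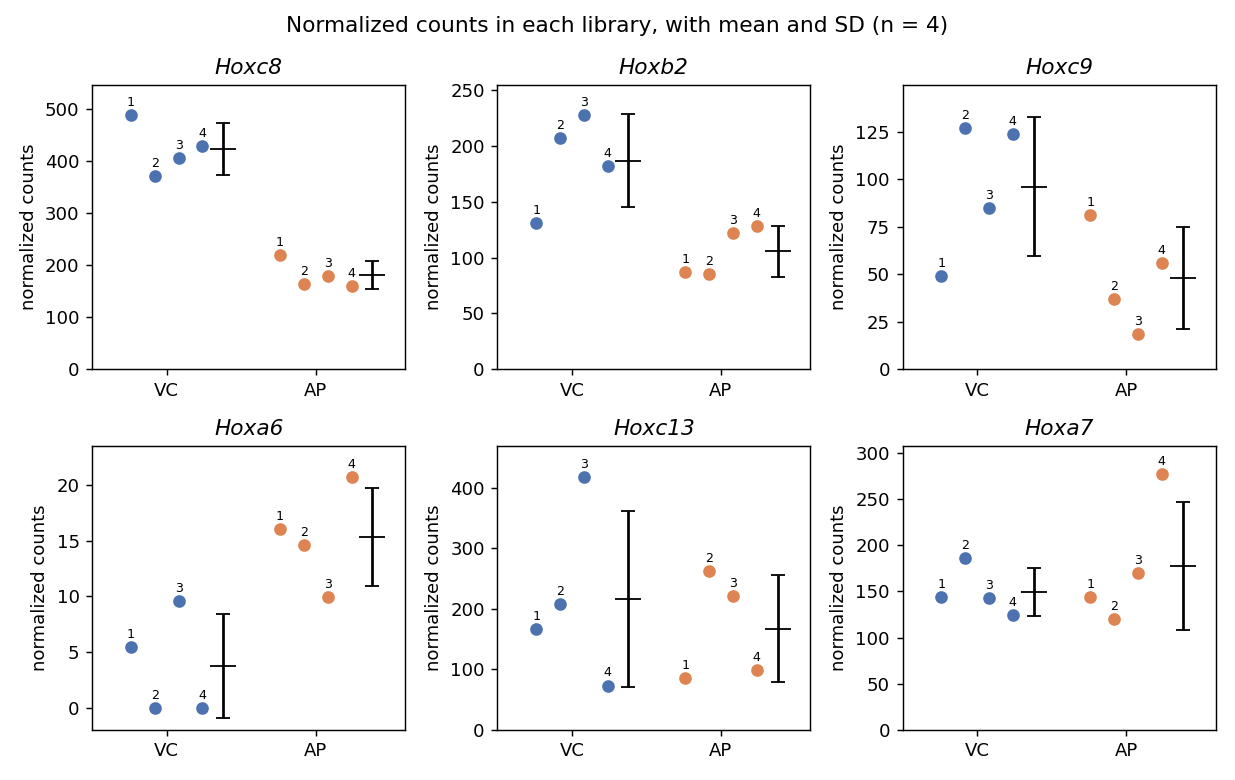
Normalized counts of 6 Hox genes in each VC and AP library (points, numbered by library), with the mean and SD of each group (n = 4). Hoxc8 lies between 371 and 489 in VC and between 160 and 220 in AP; the groups also stay apart in Hoxb2 and Hoxa6, and overlap in Hoxc9, Hoxc13 and Hoxa7.

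The other Hoxc genes were not called. Hoxc6, a thoracic gene expressed in the anterior trunk, had 222, 70.9, 173 and 152 normalized counts over VC.1-VC.4, then 92.8, 125, 85.7 and 73.0 over AP.1-AP.4. VC.2 was the lowest of all 8 libraries and the groups overlapped, with a log2 fold change of -0.63 (SE 0.34, limma adjusted p = 0.230). Without VC.2 it was -0.96 with an adjusted p of 0.0453 from limma, within a range of 0.0453 to 0.558 over all alternatives. Hoxc9, also picked after its values were seen, had a log2 fold change of -1.08 (SE 0.46, limma adjusted p = 0.140), Hoxc4 of -0.53 and Hoxc5 of -0.50. With 1 library left out these ranged from -1.39 to -0.70 in Hoxc9 and from -0.74 to -0.23 in Hoxc4. In Hoxc5 the range was -0.66 to -0.12, the last without VC.1.

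Hoxc13 was variable in both groups. The gene (ENSMUSG00000001655) lies at the posterior end of the cluster on chromosome 15 from 102921103 to 102928814, plus strand. It had 167, 208, 418 and 73.1 normalized counts over VC.1-VC.4, then 86.3, 262, 222 and 98.0 over AP.1-AP.4. VC.3 was the highest and VC.4 the lowest of all libraries, so that the AP range lay within the VC range. The means were 217 ± 146 and 167 ± 87.9 (SD, n = 4 each), with a log2 fold change of -0.28 (SE 0.50, limma adjusted p = 0.740; two-sided exact permutation test on the log2 values, p = 0.686). A difference between the groups was not detected, and the sign rested on single libraries: without VC.3 the log2 fold change was 0.12, and with total counts it was 0.59 against a median of 0.90.

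Markers of the hair matrix, where Hoxc13 is expressed, were read beside it. Of the 10 markers of the list, 9 were listed and tested, with Krt35 and Dlx3 the most abundant per length and Krt85 not listed. Their summed level was 5346, 3344, 4962 and 1410 normalized counts over VC.1-VC.4, then 1764, 2841, 4038 and 2388 over AP.1-AP.4. VC.4 and AP.1 were the lowest of their groups in both the markers and Hoxc13, but the highest differed: VC.1 and AP.3 in the markers, VC.3 and AP.2 in Hoxc13. Their part in the spread of Hoxc13 was not tested. The median log2 fold change of the matrix markers was -0.53 (-0.88 to -0.24 with 1 library left out, 0.33 with total counts), and limma called 0 of 9 (1 at an unadjusted p under 0.05, 0 by edgeR, DESeq2 or voom).

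Of the list of Hoxc13 targets and hair keratins, 20 of 24 genes were listed and 16 tested. Their median log2 fold change was 1.64, with 2 of 16 below 0 (46.5% of all genes were), and 1 was higher in AP by limma (6.25%, where 6.33% of all genes were; 2 by edgeR, 5 by DESeq2, 1 by voom, and 13 with total counts, where the median was 2.44). The summed level of the list was 2314, 1766, 1589 and 596 normalized counts over VC.1-VC.4, then 1427, 6705, 6205 and 2291 over AP.1-AP.4. AP.2 and AP.3 stood apart, mostly through the single gene Tchh, while AP.1 and AP.4 lay within the VC range. Other high log2 fold changes came from keratins with VC means under the floor: Krt83 (3.27, mean 3.16), Krt33a (3.12, mean 3.44) and Krt33b (2.75, mean 2.87). Foxq1 and Padi3, with VC means of 74.7 and 68.9, had 1.16 and 1.03 and were not called. The gene called was Tchh, for trichohyalin of the inner root sheath, with 366, 265, 247 and 99.4 normalized counts over VC.1-VC.4, then 709, 4478, 4193 and 1223 over AP.1-AP.4 (log2 fold change 3.18, SE 0.57, limma adjusted p = 0.0113). Krt35, the most abundant hair keratin of the list per length, had 935 ± 403 normalized counts in VC and 600 ± 267 in AP (SD, n = 4 each), with a log2 fold change of -0.60 (limma adjusted p = 0.303). The level of Hoxc13 and that of its list thus differed in the sign of their fold changes, and neither sign is called for Hoxc13. Krt39, Krt85, Krtap16-1 and Lpo were not listed.

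Hoxa6, a thoracic gene, was expressed at a low level. It had 5.46, 0, 9.56 and 0 normalized counts over VC.1-VC.4, then 16, 14.6, 9.96 and 20.7 over AP.1-AP.4. The groups did not overlap, although VC.3 and AP.3 were close. Its log2 fold change of 2.46 (SE 0.85, limma adjusted p = 0.0789) was not called. It passed with total counts (3.01, 0.00724) and without VC.3 (3.09, 0.0413), and the adjusted p reached 0.274 over its alternatives.

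Hoxa7 and Hoxa5 were the most abundant genes of the cluster per length. Hoxa7, a thoracic gene, had 144, 186, 143 and 124 normalized counts over VC.1-VC.4, then 144, 120, 170 and 277 over AP.1-AP.4. AP.4 stood above all other libraries, and the rest lay in 1 range. Of the exon bases of Hoxa7, 20.4% lie opposite the transcript Hoxaas3, which was also highest in AP.4, with 101 normalized counts, so the lead of Hoxa7 in AP.4 is uncertain to that extent. The log2 fold change was 0.19 (SE 0.26, limma adjusted p = 0.652) and was -0.04 without AP.4. Hoxa5, which acts in lung and cervical patterning, had 25.5, 85.7, 62.8 and 35.6 over VC.1-VC.4, then 50, 60.9, 99.2 and 85.1 over AP.1-AP.4. The groups overlapped, with a log2 fold change of 0.59 (SE 0.40, limma adjusted p = 0.350).

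Hoxa3 had the highest log2 fold change of the Hox genes detected in all 8 libraries, 0.69 (SE 0.53, limma adjusted p = 0.409). It had 10.9, 10.3, 10.9 and 31.9 normalized counts over VC.1-VC.4, then 17.4, 12.4, 36.9 and 37.2 over AP.1-AP.4. VC.4 lay among the AP values, so the groups overlapped. Antisense transcripts face 25.4% of its exon bases. Hoxa2 and Hoxa4 had log2 fold changes of 0.66 and 1.18, and the posterior Hoxa9 and Hoxa10 had -0.87 and -0.01, with adjusted p between 0.377 and 0.994 from limma.

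In the Hoxb cluster no gene was called by limma, and 1 of 8 had an unadjusted p under 0.05. This was Hoxb2, a hindbrain gene in the embryo, chosen for description after its values were seen. It had 131, 207, 228 and 182 normalized counts over VC.1-VC.4, then 87.0, 85.2, 122 and 128 over AP.1-AP.4. Every VC library was above every AP library, VC.1 only narrowly above AP.4. Its log2 fold change of -0.81 (SE 0.24, limma adjusted p = 0.0530) was past the threshold in 6 of 22 alternatives, among them edgeR (-0.83, adjusted p = 0.0484), DESeq2 (0.0126) and voom (0.0481), and the adjusted p ranged from 0.0126 to 0.898.

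Hoxb7, Hoxb6 and Hoxb8, neighbours in the trunk part of the cluster, were its most abundant genes per length. Hoxb7 had 94.6, 201, 84.7 and 122 normalized counts over VC.1-VC.4, then 71.8, 84.1, 74.7 and 107 over AP.1-AP.4. Hoxb6 had 85.5, 179, 188 and 107 over VC.1-VC.4, then 63.1, 117, 109 and 75.1 over AP.1-AP.4. VC.2 was the highest or next to the highest library in both, and the groups overlapped. Their log2 fold changes were -0.50 (SE 0.29, limma adjusted p = 0.274) and -0.58 (SE 0.32, adjusted p = 0.234). Hoxb8 had 131, 270, 161 and 128 normalized counts over VC.1-VC.4, then 123, 107, 152 and 136 over AP.1-AP.4. VC.2 alone stood apart there, and the other libraries lay between 107 and 161 (log2 fold change -0.35, SE 0.26, limma adjusted p = 0.387). The remaining log2 fold changes were -0.49 for Hoxb3, -0.46 for Hoxb4, -0.68 for Hoxb5 and -0.19 for Hoxb9, with adjusted p between 0.273 and 0.871 from limma.

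In the Hoxd cluster no gene was called by limma, and none of the 3 tested had an unadjusted p under 0.05. Hoxd8, a trunk gene, had 387, 176, 265 and 218 normalized counts over VC.1-VC.4, then 265, 239, 133 and 170 over AP.1-AP.4. Hoxd9 had 63.7, 65.0, 75.1 and 135 over VC.1-VC.4, then 107, 135, 56.8 and 68.7 over AP.1-AP.4. In both genes the groups overlapped, and in both AP.1 and AP.2 were above AP.3 and AP.4. The log2 fold changes were -0.36 (SE 0.28, limma adjusted p = 0.410) and 0.11 (SE 0.35, adjusted p = 0.862). Hoxd10 had 9.10, 1.48, 9.56 and 20.6 normalized counts over VC.1-VC.4, then 11.6, 34.0, 11 and 17.9 over AP.1-AP.4. Its groups overlapped as well (log2 fold change 1.03, SE 0.69, limma adjusted p = 0.338).

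Summed over the 30 genes, the per-length Hox level was 989, 1051, 1077 and 899 normalized counts per kb over VC.1-VC.4, then 701, 766, 721 and 735 over AP.1-AP.4. On this scale all AP libraries were below all VC libraries, and the AP mean was 0.728 times the VC mean. Scaled by the reads outside mitochondrial genes it was 0.745 times. With total counts, a scaling of this sum chosen after seeing the data, its direction turned: the AP mean was 1.31 times the VC mean, with 74.9, 104, 122 and 74.3 over VC.1-VC.4, then 114, 131, 129 and 116 over AP.1-AP.4 in RPKM, and the groups overlapped. The Hoxa cluster gave 10.2%, 12.8%, 10% and 7.67% of this sum over VC.1-VC.4, then 17.4%, 14.4%, 20.9% and 26% over AP.1-AP.4. Its share was higher in every AP library. The Hoxc share was 43.1%, 33.1%, 43.1% and 38.4% over VC.1-VC.4, then 32.2%, 32.6%, 31.4% and 24.4% over AP.1-AP.4, apart by little between VC.2 and AP.2. Hoxc8 alone gave 15.0% ± 2.49 of the sum in VC and 8.77% ± 1.64 in AP (SD, n = 4 each). The fall of the Hoxc share is thus not separate from that of Hoxc8. Hoxb gave 36.2% ± 6.67 in VC and 32.8% ± 3.81 in AP, and Hoxd 14.2% ± 4.07 and 17.4% ± 5.52 (SD, n = 4 each), with overlapping groups. The position along the clusters did not move in the same way: the mean paralog number weighted by per-length level was 6.93 to 7.54 over the VC libraries and 6.86 to 7.63 over the AP libraries. Without Hoxc13, which stands apart from the positional code, it was 6.48 to 6.89 in VC and 6.19 to 6.79 in AP. These sums are descriptions and were not tested.

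Transcripts other than coding genes come from the clusters too. Of 20 such RNAs sought by name, 6 were listed and tested, and all 6 had log2 fold changes below 0 (median -0.43, from -0.66 to -0.21 with 1 library left out, or 0.41 with total counts). limma called 0 of them (2 at an unadjusted p under 0.05, 0 by edgeR or voom and 1 by DESeq2). Hoxb3os and Hotairm1 were the most abundant per length. Hoxb3os had 285 ± 73.2 normalized counts in VC and 196 ± 33.9 in AP, and Hotairm1 45.3 ± 24.9 and 37.6 ± 15.2 (SD, n = 4 each). Since Hoxb3 and Hoxb2 share exon bases with Hoxb3os on opposite strands, their fold changes of the same sign may not be separate observations, depending on a strand setting not given in the sources used here.

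Hox proteins bind DNA with partners of the Pbx, Meis and Pknox families. All 9 of these cofactors were tested and limma called 0 (2 at an unadjusted p under 0.05, 0 by edgeR or voom and 2 lower by DESeq2), with a median log2 fold change of -0.27. The median ranged from -0.34 to 0.03 with 1 library left out, and with total counts it was 0.58, with 2 called higher. Pbx2, the most abundant per length, had 321 ± 53.5 normalized counts in VC and 263 ± 7.19 in AP (SD, n = 4 each). Every VC library was above every AP library, VC.1 with 275 and VC.4 with 276 only narrowly above AP.4 with 271 (log2 fold change -0.28, limma adjusted p = 0.282).

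The Polycomb group keeps Hox genes silent outside their domain, and the Trithorax group keeps them active. Of 23 Polycomb genes tested limma called 0 (4 at an unadjusted p under 0.05, 0 by edgeR or voom and 1 lower by DESeq2), with a median log2 fold change of 0.22. The median ranged from 0.02 to 0.29 with 1 library left out and was -0.02 relative to the fibroblast list, and with total counts it was 1.09, with 14 called higher. Phc2 had 597 ± 87.8 normalized counts in VC and 730 ± 43.6 in AP, and Suz12 had 328 ± 45.4 and 334 ± 62.4 (SD, n = 4 each), the most abundant of the list per length. Of 14 Trithorax genes and activators tested, 3 were higher in AP (21.4%, where 6.33% of all genes were) and 0 lower by limma, with a median of 0.43. Ash1l, a histone methyltransferase, had 267, 176, 231 and 150 normalized counts over VC.1-VC.4, then 341, 479, 417 and 381 over AP.1-AP.4 (log2 fold change 0.99, SE 0.21, limma adjusted p = 0.0186). The log2 fold change was 1.03 in Kmt2c, another methyltransferase (SE 0.27, limma adjusted p = 0.0370), and 1.31 in Kdm6a, a demethylase of the Polycomb mark (SE 0.32, adjusted p = 0.0294). In these 3 genes every AP library was above every VC library. Ctcf and Wdr5, the most abundant per length, had log2 fold changes of 0.29 and -0.08 and were not called. With values relative to the fibroblast list, where 34 of all genes were called higher, 0 of the 14 were, and with total counts, where 8662 of all genes were, 14 of 14 were. The activators Cdx1, Cdx2 and Cdx4 were not listed. Long transcripts had higher fold changes in general: across 11257 genes with a mean of at least 50 normalized counts, Spearman's rho of the log2 fold change with merged exon length was 0.342, as a description across genes that share the same 8 libraries.

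Other transcription factors of skin position were read as well. Of 19 tested, 5 were lower in AP (26.3%, where 4% of all genes were) and 0 higher by limma, with a median log2 fold change of -0.90 (6 lower by edgeR, DESeq2 and voom). Of the 19, 6 were above 0, and the difference between the shares was not tested. En1, a homeobox gene of dorsal dermis, had 106, 82.8, 126 and 124 normalized counts over VC.1-VC.4, then 66.0, 50.7, 56.3 and 43.6 over AP.1-AP.4 (log2 fold change -1, SE 0.26, limma adjusted p = 0.0342). Tbx15, a T-box gene of dorsal skin, had 646, 445, 572 and 804 over VC.1-VC.4, then 530, 254, 209 and 198 over AP.1-AP.4 (-1.14, SE 0.30, adjusted p = 0.0363). En1 did not overlap between the groups, and Tbx15 did through AP.1. The mesenchymal homeobox genes Shox2 (-1.13, SE 0.29, limma adjusted p = 0.0339), Prrx2 (-0.88, SE 0.23, adjusted p = 0.0363) and Alx4 (-1.37, SE 0.37, adjusted p = 0.0404) were the other 3. Barx2 and Twist2, the most abundant of the list per length, had log2 fold changes of 0.87 and -1.18 with adjusted p of 0.139 and 0.0532. With total counts or relative to the fibroblast list, where 70 and 40 of all genes were called lower, 0 of the 19 were, and with total counts 3 were called higher. The median of the list was -0.05 with total counts and -1.14 relative to the fibroblast list.

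Markers of dermal cells were read beside these results. Of 9 fibroblast markers tested limma called 0 (3 at an unadjusted p under 0.05, 0 by edgeR or voom and 1 lower by DESeq2), with a median log2 fold change of 0.41. The median ranged from 0.23 to 0.75 with 1 library left out, and with total counts it was 1.28, with 8 called higher. Their summed level was 122459, 82853, 84983 and 225057 normalized counts over VC.1-VC.4, then 256823, 191589, 138109 and 99569 over AP.1-AP.4, mostly from Col1a1, Col1a2 and Col3a1. VC.4 and AP.1 were the highest of their groups, and the groups overlapped. In log2 fold change 6 of the 9 were above 0 and 3 below 0, Dpt lowest with -0.85 (limma adjusted p = 0.0644). Of 10 dermal papilla markers, all listed, 5 were lower in AP (50%, where 4% of all genes were) and 0 higher, with a median of -1.08: Crabp1 (-2.17, limma adjusted p = 0.0167), Sox2 (-1.78, 0.0174), Rspo3 (-1.45, 0.0212), Alx4 and Wif1 (-1.24, 0.0282). Their summed level was 2461, 2517, 3569 and 3617 normalized counts over VC.1-VC.4, then 1055, 1130, 1767 and 860 over AP.1-AP.4, without overlap. Crabp1 and Wif1 were the most abundant per length. With total counts or relative to the fibroblast list, 1 of the 10 was called lower, and the median was -0.21 and -1.32. The parts of dermal fibroblasts and of the dermal papilla in the fall of Hoxc8, En1 and Tbx15 were not tested, and likewise that of the mitochondrial share.

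Epidermal markers were read too, since interfollicular epidermis had been removed. Of 9 suprabasal markers tested, 8 were higher in AP by limma (88.9%, where 6.33% of all genes were), with a median log2 fold change of 3. Their summed level was 5837, 12568, 8589 and 5468 normalized counts over VC.1-VC.4, then 43025, 40996, 119813 and 170052 over AP.1-AP.4, with Krt10 and Krt1 the most abundant per length and every marker listed. AP.3 and AP.4 were far above AP.1 and AP.2. Of 7 basal markers 3 were higher in AP (42.9%; Itga6, Itgb4 and Col17a1), with a median of 1.02 and Krt14 and Krt5 the most abundant. Relative to the fibroblast list, 5 of the 9 suprabasal and 0 of the 7 basal markers were called. The part of these cells in the Hox results was not tested.

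Markers of other cell types were read in the same way. Of 6 melanocyte markers 4 were lower (Mlana, Tyr, Pmel and Mitf, median -1.09) and of 6 Schwann cell markers 3 were lower (S100b and Mbp among them, median -0.71), where 4% of all genes were. With total counts or relative to the fibroblast list, 1 of each list was called lower. With total counts the melanocyte median was -0.22, and the Schwann cell median was 0.16, with 2 Schwann cell markers called higher. Higher in AP were 2 of 6 endothelial markers (Pecam1 and Cdh5, median 1.41), 2 of 6 smooth muscle and pericyte markers (Myh11 and Acta2, median 0.68) and 1 of 5 red blood cell genes (Hbb-bs, median 0.94), where 6.33% of all genes were. Not every member went this way: the log2 fold change was -1.33 in Des, the most abundant of the smooth muscle list per length (limma adjusted p = 0.105), -0.81 in Hba-a2 (0.0901), -0.40 in the endothelial Egfl7 (0.291) and 0.21 in Hba-a1 (0.677). With 1 library left out the median ranged from 0.43 to 0.86 for smooth muscle and from 0.29 to 1.01 for red blood cells. DESeq2 called 1 red blood cell gene higher and 1 lower. Relative to the fibroblast list, 0 endothelial, 1 smooth muscle and 0 red blood cell genes were called higher. limma called 0 of 9 skeletal muscle markers (median -1.61, or -2.45 to -1.28 with 1 library left out, 6 at an unadjusted p under 0.05, 0 by edgeR, DESeq2 or voom), 0 of 6 adipocyte markers (median 0.05, or -0.30 to 0.33 with 1 left out, 1 at an unadjusted p under 0.05, 0 by the other tools) and 0 of 6 leukocyte markers (median -0.18, or -0.37 to 0.11 with 1 left out, 4 at an unadjusted p under 0.05, 2 by DESeq2, 0 by edgeR or voom). The summed skeletal muscle level was 66421 normalized counts in AP.1, against 4972 to 10567 in the other AP libraries and 33047 to 65136 in VC. The parts of these cell types in the Hox results were not tested.

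The clusters also encode microRNAs that target Hox transcripts, of which the miR-196 family is the best known. These microRNA genes were not listed in the table and their levels were not analysed here. Their sequences are shown because Hoxc8, Hoxb8 and Hoxa7 are classic targets. miR-196a-5p comes from Mir196a-1 beside Hoxb9 on chromosome 11 and from Mir196a-2 between Hoxc10 and Hoxc9 on chromosome 15, and miR-196b-5p from Mir196b within the annotated Hoxa9 gene on chromosome 6 (RefSeq, GRCm38.p6). Capitals mark the seed, bases 2 to 8, which both share.
miR-196a-5p: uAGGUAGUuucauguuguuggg
miR-196b-5p: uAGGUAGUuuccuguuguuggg

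The letters ACTACCT, complementary to this seed, were sought on the transcribed strand of the 3′ untranslated regions (GENCODE M21). They occurred in 9 of the 30 listed Hox genes (30.0%) and in 1204 of 16116 listed genes with such a region (7.47%), whose median length was 919 bases in the Hox genes and 1263 in all. Hoxc8 holds the letters at 2 places and Hoxa7 at 4. The windows below are given 5′ to 3′ over the length of miR-196a-5p, with capitals at bases that form a Watson-Crick pair with it without a gap: both Hoxc8 windows (chr15:102992976-102992997 and chr15:102993733-102993754, plus strand), the best paired of Hoxa7 (chr6:52215210-52215231, minus strand) and that of Hoxb8 (chr11:96284888-96284909, plus strand).
Hoxc8, first match: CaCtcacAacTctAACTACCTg
Hoxc8, second match: taaAtCtttAacAtACTACCTA
Hoxa7: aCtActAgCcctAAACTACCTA
Hoxb8: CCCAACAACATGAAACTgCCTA

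Of the 22 bases, 12 pair in each Hoxc8 window, 14 in that of Hoxa7 and 21 in that of Hoxb8, where the remaining base, a G facing a U (a wobble pair), lies within the seed, so Hoxb8 is not among the 9. The best window of any other listed Hox gene, in Hoxd8, paired 15. Of the 8 tested Hox genes with the letters, 4 were above 0 and 4 below 0 in log2 fold change (median -0.15), and of the 18 without them 5 and 13 (median -0.36). For the miR-10 family, encoded next to Hoxb4 and within the annotated Hoxd4 gene, the letters ACAGGGT occurred in 3 of 30 Hox genes (10%, against 14.5% of all genes), Hoxa3 and Hoxb3 among them. A match is a description of the sequence only.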

How the data were processed

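RNA-seq reads of the 8 libraries were, per the methods and processing notes, aligned by the authors to mm10 with STAR and counted per gene (the methods name featureCounts, the notes HTSeq); versions, annotation and strand setting are not given in the sources used here. The deposited signal is each count over the size factor of its library, from DESeq2. All 150160 values were whole multiples of 1 step per library (tolerance 0.05 reads), so reads were recovered. The authors' comparison columns (mean, log2 fold change, its error, statistic, p-value and adjusted p-value) were not used. All 18770 identifiers matched GENCODE M21, which gave coordinates, merged exons and untranslated regions.

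log2(value + 1) was fitted with limma 3.58.1 (R 4.3.3, intensity trend) on genes that reached 3 normalized counts in 4 or more libraries, with Benjamini-Hochberg adjustment over 15964 genes and no covariate. edgeR 4.0.16, DESeq2 1.42.0 and voom on recovered reads, other scalings, pseudocounts, filters, equal depth (3080758 reads outside mitochondrial genes), a length correction and each library left out were alternatives. On recovered reads edgeR called 1003 genes higher and 712 lower, and DESeq2 1677 and 1362. Among replicates, chi-square per degree of freedom ran from 15.8 to 78.9, so no 2 libraries were alike beyond counting noise. Steps were tested on simulated data. Python 3.11.15 was used for exact tests over the 70 assignments.

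Named in full were Hoxc13, each Hox gene with an adjusted p under 0.05, the 3 highest per length in each cluster and, among genes detected in all 8 libraries, those with the largest and smallest log2 fold change; list members were named when called or as the 2 most abundant. Some genes that meet these rules are not reported here. Members and lists were chosen with earlier results of these data known.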

Additional observations from a re-analysis of the deposited data

Results flagged for a closer look

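In each group of 4 libraries, the library farthest from the others was compared with the range of the group on the log2 scale for the 26 Hox genes tested. Of 52 groups, 3 had a library far from the other 3, and chance alone gives about 1 in 20. Hoxa3 had 31.9 normalized counts in VC.4, above the other VC libraries at 10.9, 10.3 and 10.9. Hoxb5 had 9.10 in VC.1, below 38.4, 39.6 and 43.1 in VC.2 to VC.4. Hoxc5 had 106 in VC.1, above 34.0, 38.2 and 37.5 in VC.2 to VC.4.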

How the results depend on the processing

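The number of Hox genes called higher in AP was 1, and 0 with edgeR, voom, a pseudocount of 0.5, a filter of 10, equal depth or relative to the fibroblast list (chosen after seeing the data), and 7 with total counts. The number called lower was 1, and 2 with edgeR, DESeq2, voom, a filter of 10, equal depth and the methods' cutoffs on the limma fit. It was 0 with total counts or relative to the fibroblast list. With 1 library left out these counts ranged from 0 to 1 and from 1 to 2. The median log2 fold change of -0.36 became 0.47 with total counts and -0.60 relative to the fibroblast list. The cause was not tested beyond the shift of all genes. Hoxc13 changed sign with total counts (0.59), and ranged from -0.71 to 0.12 with 1 library left out. Signs also turned with total counts in Hoxb2 (0.05), Hoxb3 (0.37), Hoxb4 (0.39), Hoxb5 (0.14), Hoxb6 (0.28), Hoxb7 (0.36), Hoxb8 (0.51), Hoxb9 (0.64), Hoxc4 (0.33), Hoxc5 (0.35), Hoxc6 (0.24), Hoxd8 (0.50) and Hoxa10 (0.43). Near 0 or at low counts they turned in Hoxa2 with edgeR and DESeq2 (-0.14 each), in Hoxa10 with upper-quartile factors (0.0035), a pseudocount of 0.5 (0.0005), equal depth (0.14) and the length correction (0.01), and relative to the fibroblast list in Hoxa7 (-0.05) and Hoxd9 (-0.14). With 1 library left out the ranges crossed 0 in Hoxa2 (-0.25 to 1.35), Hoxa7 (-0.04 to 0.36), Hoxa10 (-0.69 to 0.65), Hoxb9 (-0.76 to 0.35) and Hoxd9 (-0.10 to 0.35). Over the 25 tested genes other than Hoxc13, 489 of 547 alternatives kept direction and side of the threshold. The 19 genes detected in all libraries were 16 with a floor of 10 reads. The summed level in AP was 0.728 times that in VC and 1.31 times with total counts (chosen after seeing the data), so its direction turned, while it stayed between 0.703 and 0.746 with transcript length, reads outside mitochondrial genes or 1 library left out. Under these last 3 alternatives the Hoxa and Hoxc shares moved by less than their spread. No paired analysis was possible because the labels number the samples 1, 2, 3 and 5 in VC and 16, 17, 19 and 20 in AP and share none. At 3 reads or fewer, as for Hoxc12 and Hoxb1 in the AP group, depth limits what can be said.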
